A study of Mus musculus with 6 samples.

Results

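The semaphorin, plexin, neuropilin, ephrin and Eph receptor genes were followed in primary mouse osteoblasts that were undifferentiated, differentiated, or differentiated in the presence of the kinase inhibitor cabozantinib. Members were chosen by symbol alone, as every gene of semaphorin classes 3 to 7, every plexin, both neuropilins, every A- or B-type ephrin and every EphA or EphB receptor. The rule found 53 genes of the 20659 named on the array, on 68 of its 39429 probes. They are 20 semaphorins, 9 plexins, 2 neuropilins, 8 ephrins and 14 Eph receptors. All 6 arrays held cells of CD1 mice, grown out of the calvaria, the skull vault, of pups 2 to 5 days old. The undifferentiated osteoblasts were taken at confluence, the differentiated ones after a further 30 days in differentiation medium (with ascorbic acid and β-glycerol phosphate), and the treated ones after the same 30 days in that medium with cabozantinib (XL184). Each condition had 2 arrays, and the labels do not say whether the 2 came from separate cultures. The p-values therefore rest only on spread among these arrays, as left after a term for the replicate number and partly pooled over probes.

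Semaphorins are secreted or membrane-bound guidance proteins that are read by plexins, and the secreted class 3 proteins bind neuropilins, which lack a signalling domain of their own, as co-receptors beside the plexin. Ephrins are tethered to the membrane and bind Eph receptor tyrosine kinases on the neighbouring cell, and both partners can signal. In bone, Sema3a acts on osteoblasts and osteoclasts through Nrp1 and A-type plexins, Sema4d made by osteoclasts acts on osteoblasts through Plxnb1, and Efnb2 with Ephb4 carries signals between both cell types.

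Promoter sequence is shown for 4 members, the pair with the largest falls called at both groups' measured signal (Sema4f and Nrp1) and a pair that rose and are receptors (Plxnd1 and Ephb1), so that the letters before a start of genes that moved in opposite directions can be read side by side. Each run is the 250 bases before the 1 start that the RefSeq promoter table lists for the gene on build GRCm38.p6, written 5′ to 3′ on the strand of the gene. Capitals mark the motifs found on either strand, which in these windows were the GC box, spelled GGGCGG and read by Sp factors, the CCAAT box, named by its letters, and the RUNX motif of the family of Runx2. The RUNX motif was searched as TGTGGT. None of the motifs searched is held in another. Sema4f lies on the minus strand at chr6:82939770-82940019, Nrp1 on the plus strand at chr8:128358823-128359072, Plxnd1 on the minus strand at chr6:115995006-115995255 and Ephb1 on the minus strand at chr9:102354694-102354943. The windows of Sema4f and Ephb1 lie directly upstream of the annotated gene, while those of Nrp1 and Plxnd1 lie inside its annotated span, since the gene record begins before the start that the table lists.
Sema4f: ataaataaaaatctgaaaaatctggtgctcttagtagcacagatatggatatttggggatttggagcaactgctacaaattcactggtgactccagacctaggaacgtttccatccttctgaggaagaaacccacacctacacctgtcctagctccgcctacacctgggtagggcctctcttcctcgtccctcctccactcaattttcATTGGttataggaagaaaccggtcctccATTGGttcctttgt
Nrp1: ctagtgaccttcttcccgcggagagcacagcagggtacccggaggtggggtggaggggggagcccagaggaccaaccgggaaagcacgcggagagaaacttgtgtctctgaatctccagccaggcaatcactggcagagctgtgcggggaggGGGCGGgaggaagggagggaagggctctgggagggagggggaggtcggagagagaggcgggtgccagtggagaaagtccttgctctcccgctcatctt
Plxnd1: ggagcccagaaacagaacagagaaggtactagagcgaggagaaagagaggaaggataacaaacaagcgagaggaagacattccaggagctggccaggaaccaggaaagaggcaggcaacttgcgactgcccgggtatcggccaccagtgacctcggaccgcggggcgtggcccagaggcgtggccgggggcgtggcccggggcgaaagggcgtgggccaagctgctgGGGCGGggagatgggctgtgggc
Ephb1: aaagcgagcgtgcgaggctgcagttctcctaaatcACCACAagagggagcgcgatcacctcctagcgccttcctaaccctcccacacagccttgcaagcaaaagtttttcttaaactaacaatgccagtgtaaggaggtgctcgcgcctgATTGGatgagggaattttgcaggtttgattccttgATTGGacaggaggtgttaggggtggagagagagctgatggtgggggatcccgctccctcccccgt

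The Sema4f window held a CCAAT box at 2 places and no GC box, and 46% of its bases were G or C. The Nrp1 and Plxnd1 windows held 1 GC box each, at a G and C content of 64.4% and 64.8%. The Ephb1 window held a CCAAT box at 2 places and the RUNX letters once, at -215 from the start. Of 47 members with a promoter in the RefSeq table, 37 (78.7%) held a GC box in at least 1 of their windows, while 32.7% of all 32851 promoter windows of this length did. The CCAAT letters were in windows of 17 members (36.2%) against 33.8% of all windows, and the RUNX letters in those of 8 members (17%) against 14%. The letters TATAAA were in a window of 1 member (2.13%) against 12.4% of all, TGANTCA, the AP-1 letters, in those of 3 members (6.38%) against 6.75%, and TGACGTCA, the cyclic AMP response element, in that of 1 member (2.13%) against 1.55%. Members with several listed starts had more than 1 chance to match, and a match is a description of letters, not of a bound factor.

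Levels are given as log2 signal relative to the 75th percentile of the array, the scanner software called a probe well above background or not, and each gene is described at its brightest tested probe. Probes target different sequences, so levels are compared between arrays and not between genes. The scanner software called from 58.8% to 72.9% of the spots on an array well above background, and no spot was saturated. The filter for testing, a signal called above background on 2 or more arrays, was met by 46 members. The 7 others were Sema3d, Sema3g, Sema5b, Plxnb1, Efnb3, Epha6 and Epha10. Of the 46, 40 were above background on every array at the probe used. By the scan dates that the scanner recorded, both treated samples were on a slide of their own while the 4 other samples shared one. Slide or scan date therefore cannot be told apart from cabozantinib.

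**Figure D1:**
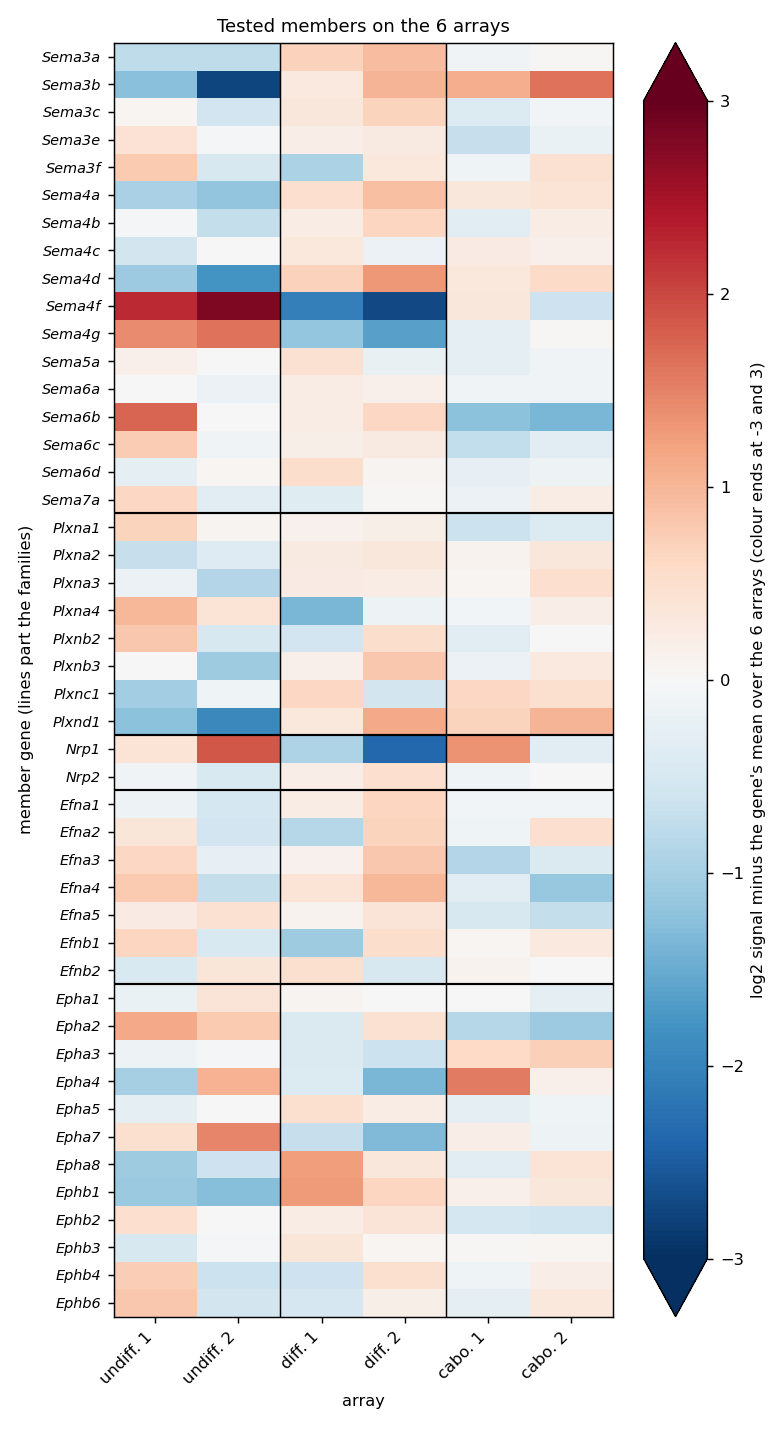
Log2 signal of the 46 tested members on the 6 arrays (columns), each gene centred on its mean over the arrays, with lines between families and between conditions. Blue is below and red is above the gene's mean. Sema4f has the widest range, highest on both undifferentiated arrays and lowest on both differentiated arrays, while Sema3b, Sema4d and Plxnd1 are lowest on both undifferentiated arrays.

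Differentiated against undifferentiated osteoblasts addressed how these genes changed with differentiation. At an adjusted p under 0.05 (limma, Benjamini-Hochberg over all probes tested), 5 of the 46 members rose and 3 fell. Over all 23082 genes tested, where a probe without a RefSeq gene counts under its transcript's name, 9.71% were called, 5.26% higher and 4.45% lower. The genes that rose were Sema3b, Sema4a, Sema4d, Plxnd1 and Ephb1, and those that fell were Sema4f, Sema4g and Nrp1. The median log2 fold change of the members was 0.05 and that of all genes was 0.11, and the arrays did not overlap for 18 members that were higher and 7 that were lower, when 25.9% and 19.4% of all genes (45.2% together) did the same.

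Sema4f, a transmembrane class 4 semaphorin, had the largest change of any member on differentiation. Its signal was -0.42 and 0.16 on the undifferentiated, -4.70 and -5.35 on the differentiated and -2.31 and -3.27 on the cabozantinib arrays. Both differentiated arrays were far below both undifferentiated arrays, with the probe above background throughout. The log2 fold change was -4.89 ± 0.55 (SE, 2 arrays a group), 29.7-fold lower, with an adjusted p of 0.000882 in limma. Sema4g, of the same class, was at -3.20 and -2.99 on the undifferentiated, -5.78 and -6.25 on the differentiated and -4.92 and -4.59 on the cabozantinib arrays. Neither differentiated array was well above background, so Sema4g was at least 7.03-fold lower (measured log2 fold change -2.92 ± 0.50, limma adjusted p = 0.00573).

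The 4 other members of class 4 had log2 fold changes above 0. Sema4d, the ligand of Plxnb1, had signals of 1.62 and 0.93 on the undifferentiated, 3.42 and 4.03 on the differentiated and 3.03 and 3.28 on the cabozantinib arrays. All 4 arrays from differentiation medium were above both undifferentiated arrays, and the log2 fold change on differentiation was 2.45 ± 0.53, 5.46-fold higher (limma adjusted p = 0.0167). Sema4a, which binds B-type plexins and Plxnd1, was at 0.08 and -0.12 on the undifferentiated, 1.55 and 1.96 on the differentiated and 1.40 and 1.46 on the cabozantinib arrays, with a log2 fold change of 1.78 ± 0.49 (limma adjusted p = 0.0491). For Sema4b and Sema4c the log2 fold changes were 0.79 and 0.36 and did not pass the test.

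Among the secreted class 3 semaphorins, Sema3b, which signals through neuropilins and was described in osteoblasts as a vitamin D target, had the largest rise of any member. The Sema3b signal was 1.95 and 0.44 on the undifferentiated, 3.49 and 4.21 on the differentiated and 4.28 and 4.83 on the cabozantinib arrays. The 2 undifferentiated arrays lay far apart but below all others, and the log2 fold change was 2.66 ± 0.63, 6.31-fold higher (limma adjusted p = 0.0249). Sema3a was at -0.31 and -0.31 on the undifferentiated, 1.13 and 1.37 on the differentiated and 0.35 and 0.49 on the cabozantinib arrays. Its brightest probe was higher on both differentiated arrays, at a log2 fold change of 1.56 ± 0.48, without passing the test (limma adjusted p = 0.0756). Its second tested probe gave -4.13 and -4.74 on the undifferentiated, -5.00 and -4.69 on the differentiated and -6.75 and -6.02 on the cabozantinib arrays. Its undifferentiated and differentiated arrays overlapped, at a log2 fold change of -0.41 ± 0.53 (limma adjusted p = 0.822), so the second probe did not show the rise. Sema3c, Sema3e and Sema3f had log2 fold changes of 0.76, 0.05 and -0.47, and none passed.

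In classes 5 to 7 no member was called on differentiation. Sema6d, a ligand of Plxna1, was at -0.73 and -0.36 on the undifferentiated, 0.10 and -0.35 on the differentiated and -0.68 and -0.57 on the cabozantinib arrays, and the log2 fold change was 0.42 ± 0.50. Sema7a, a lipid-anchored semaphorin that binds integrins and Plxnc1, was at 1.66 and 0.69 on the undifferentiated, 0.67 and 1.06 on the differentiated and 0.86 and 1.25 on the cabozantinib arrays, and the groups overlapped. Sema5a and Sema6a to Sema6c had log2 fold changes from -0.47 (Sema6b) to 0.27 (Sema6a).

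Of the semaphorin receptors, Plxnd1, the receptor of Sema3e and of Sema4a, rose and Nrp1 fell. The Plxnd1 signal was 0.41 and -0.29 on the undifferentiated, 1.96 and 2.78 on the differentiated and 2.30 and 2.65 on the cabozantinib arrays. No undifferentiated array reached any of the other 4, and the log2 fold change was 2.31 ± 0.54, 4.97-fold higher (limma adjusted p = 0.0242). Its second, dimmer probe gave -2.62 and -3.23 on the undifferentiated, -2.58 and -2.03 on the differentiated and -3.46 and -3.67 on the cabozantinib arrays, with a log2 fold change of 0.62 ± 0.52 that did not pass (limma adjusted p = 0.628). Nrp1, co-receptor of class 3 semaphorins and of VEGF, was at -3.48 and -2.04 on the undifferentiated, -4.83 and -6.24 on the differentiated and -2.55 and -4.24 on the cabozantinib arrays. Differentiated 2 was not well above background for Nrp1, and the arrays of each group lay more than 1 apart on this scale. The log2 fold change was -2.77 ± 0.74 (limma adjusted p = 0.0423).

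Nrp2, the other neuropilin, did not pass the test at signals of 4.62 and 4.27 on the undifferentiated, 4.93 and 5.23 on the differentiated and 4.60 and 4.74 on the cabozantinib arrays, and its log2 fold change was 0.64 ± 0.49. Its second, dimmer probe was lower on both differentiated arrays, at -0.38 ± 0.48, so the probes of Nrp2 differed in sign and neither passed. Plxna1 was at -0.24 and -0.82 on the undifferentiated, -0.79 and -0.73 on the differentiated and -1.56 and -1.31 on the cabozantinib arrays, a log2 fold change of -0.23. Plxnb1, the Sema4d receptor, was at -4.73 and -4.69 on the undifferentiated, -6.77 and -5.66 on the differentiated and -5.13 and -6.39 on the cabozantinib arrays, well above background on 1 of them (undifferentiated 2), and was not tested. Plxnb2, a second B-type plexin for class 4 ligands, was at 6.31 and 5.02 on the undifferentiated, 4.92 and 6.03 on the differentiated and 5.16 and 5.52 on the cabozantinib arrays. Its arrays paired as undifferentiated 1 with differentiated 2, both high, and undifferentiated 2 with differentiated 1, both low, and the groups overlapped. The 5 other plexins had log2 fold changes from -1.45 (Plxna4) to 1.01 (Plxnb3), and none was called.

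**Figure D2:**
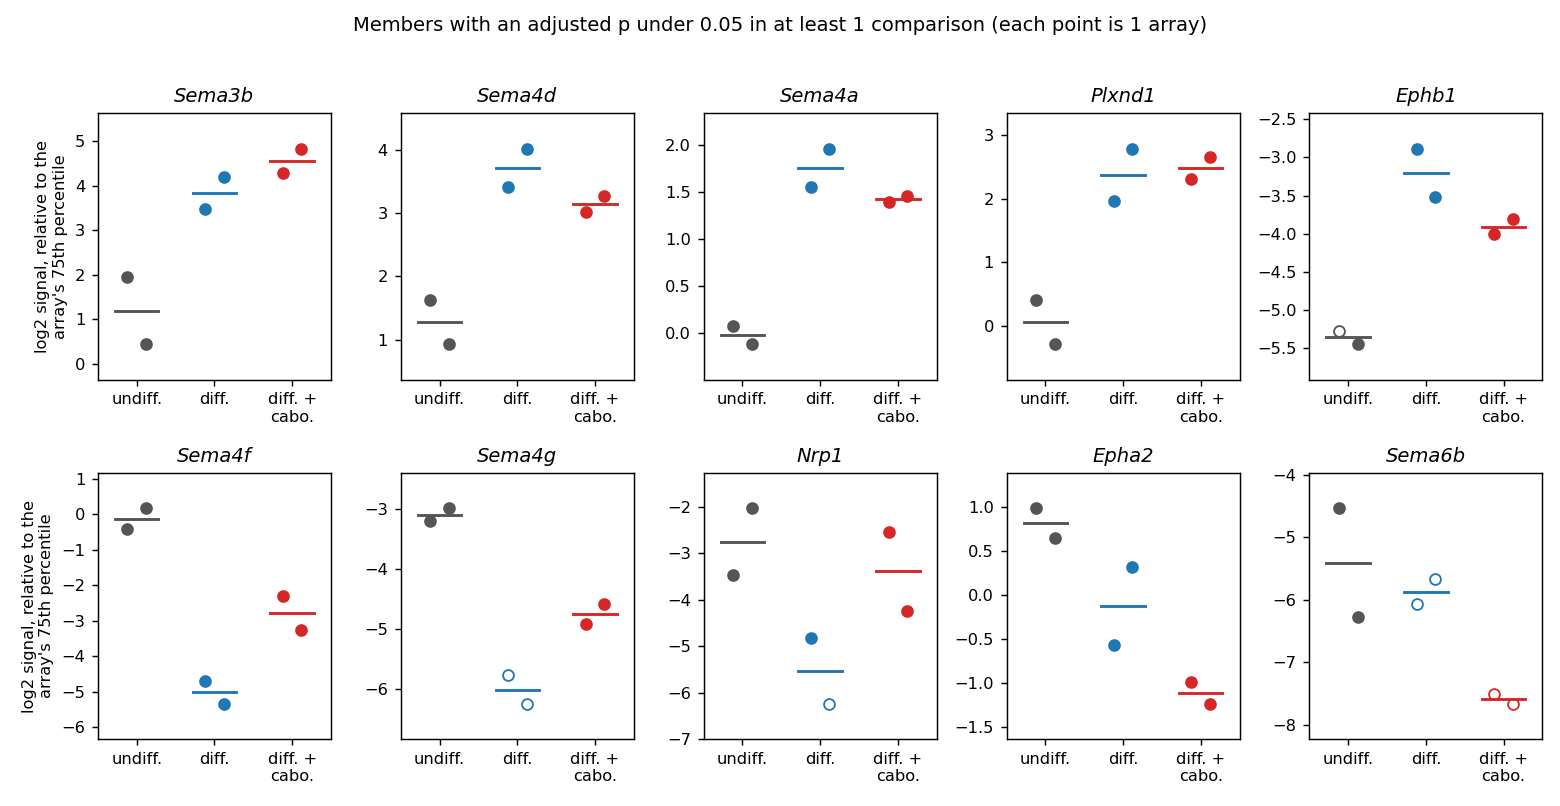
Signal of the 10 members with an adjusted p under 0.05 in at least 1 comparison, as log2 signal relative to the array's 75th percentile (vertical axes differ between panels). Each point is 1 array, open points were not well above background, and lines are means of 2 arrays. In the top row all 4 arrays from differentiation medium lie above both undifferentiated arrays, and for Sema4f and Sema4g the cabozantinib arrays lie between the other groups.

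Among Eph receptors Ephb1, a receptor of B-type ephrins, was the member called. It had signals of -5.27 and -5.45 on the undifferentiated, -2.89 and -3.52 on the differentiated and -4.01 and -3.81 on the cabozantinib arrays, with undifferentiated 1 not well above background. Every array from differentiation medium was above both undifferentiated arrays. The log2 fold change was 2.15 ± 0.50, 4.44-fold higher (limma adjusted p = 0.0233). Epha7, a receptor of A-type ephrins, was lower on both differentiated arrays and just missed the threshold. It was at -2.47 and -1.49 on the undifferentiated, -3.64 and -4.27 on the differentiated and -2.76 and -3.10 on the cabozantinib arrays, a log2 fold change of -1.98 ± 0.55 (limma adjusted p = 0.0522), while its dimmer tested probes gave -1.12 and 0.34.

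The ephrin and Eph pair best described in bone did not pass the test. Efnb2 was at -1.61 and -0.77 on the undifferentiated, -0.66 and -1.62 on the differentiated and -1.04 and -1.15 on the cabozantinib arrays, and Ephb4, its receptor on osteoblasts, was at 1.49 and 0.11 on the undifferentiated, 0.14 and 1.24 on the differentiated and 0.63 and 0.95 on the cabozantinib arrays. The Ephb4 arrays paired across the groups in the same way as those of Plxnb2. So did Efnb1, whose loss in people gives a disorder of the skull sutures, at -0.20 and -1.28 on the undifferentiated, -1.89 and -0.31 on the differentiated and -0.77 and -0.55 on the cabozantinib arrays. For Efnb1, Efnb2 and Ephb4 the log2 fold changes were -0.36 ± 0.64, 0.05 ± 0.56 and -0.10 ± 0.63.

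Ephb3 was at 2.96 and 3.43 on the undifferentiated, 3.81 and 3.50 on the differentiated and 3.48 and 3.51 on the cabozantinib arrays. Its log2 fold change on differentiation was 0.46 ± 0.50 and did not pass (limma adjusted p = 0.756). Ephb2 was at -0.52 and -1.04 on the undifferentiated, -0.81 and -0.64 on the differentiated and -1.55 and -1.63 on the cabozantinib arrays, and the groups overlapped. Epha2, with its ligand Efna2 described in signalling between osteoclasts and osteoblasts, was at 0.99 and 0.65 on the undifferentiated, -0.56 and 0.33 on the differentiated and -0.99 and -1.24 on the cabozantinib arrays, with a log2 fold change on differentiation of -0.93 ± 0.53. Efna2 itself was at -2.19 and -3.12 on the undifferentiated, -3.41 and -1.89 on the differentiated and -2.69 and -2.05 on the cabozantinib arrays, with overlapping groups. None of the 7 tested ephrins was called, and their log2 fold changes ran from -0.36 to 0.76.

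The calls depended on single arrays. Without undifferentiated 2, or without differentiated 2, only Sema4f kept its call, and fewer of all genes were called as well. Without undifferentiated 1, 13 members were called, in a fit that called 19.1% of all genes, and without differentiated 1 Sema4a and Ephb1 no longer passed. Sema4a also did not pass in a fit of only the 4 arrays compared, and leaving out either cabozantinib array gives in effect that same fit.

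Cells of other types were followed through marker lists, since bulk RNA cannot separate fewer cells of a type from less RNA per cell. Of 10 osteoblast markers 4 rose on differentiation, Bglap2 (osteocalcin, 5.06 on the log2 scale), Phex (6.38), Dmp1 (3.995) and Ibsp (2.21), and Spp1 (osteopontin, -3.67) fell. The transcription factors Runx2 (-1.92) and Sp7 (-1.85) did not pass the test and were each not well above background on at least 1 differentiated array. Of 8 tested macrophage and osteoclast markers, Csf1r (2.84), Adgre1 (4.04) and Acp5 (3.34) rose, and the log2 of the summed signal over the 9 markers on the array was 5.83 to 6.63 in undifferentiated, 8.32 to 8.90 in differentiated and 8.16 to 8.47 in cabozantinib-treated osteoblasts. Log2 fold changes were above 0 for 6 of the 8 and below 0 for Lyz2 (-1.28) and Ocstamp (-0.19). Calcr was not well above background on any array. Csf1r, Adgre1 and Acp5 were higher on the same arrays as Sema4d, Sema4a, Plxnd1 and Sema3b, and their part in those results was not tested. Of 6 adipocyte markers 4 rose, while Cidec (0.33) and Plin1 (-1.52) did not pass the test. The summed signal of the 6 was 1.62 and 1.72 on the undifferentiated arrays against 5.02 and 5.90 on the differentiated ones. Of the neuronal and glial markers reported here Sox10 (2.28) rose and Tubb3 (-2.27) fell. Of 6 tested endothelial markers Cdh5 (2.18) rose, and Tek and Tie1 were not well above background on any array. Of 5 chondrocyte markers Matn1 (4.78) and Col10a1 (2.68) rose, while Col2a1 (0.11), Acan (-0.66) and Sox9 (-0.72) did not pass. Of 4 tested muscle markers Acta1 (-2.58) fell.

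Partners of the receptors were read from a list of 18 genes, of which 17 were tested. On differentiation 5 of the 17 rose and none fell, against 5.26% and 4.45% of all genes, with a median log2 fold change of 0.23 against 0.11. They were Chl1 (4.53 ± 0.49, limma adjusted p = 0.000772) and Nrcam (3.09), adhesion molecules that associate with neuropilins, and Trem2 (3.85), Tyrobp (3.13) and Cd72 (2.82). Trem2 and Tyrobp form a myeloid receptor complex with Plxna1, and Cd72 is the Sema4d receptor of B cells. These last 3 are genes of blood-derived cells and rose, as did Csf1r, Adgre1 and Acp5 above, while Lyz2 and Ocstamp did not. The part of such cells in these values was not tested. Met, which couples to B-type plexins and is a target of cabozantinib, had signals of -3.30 and -3.56 on the undifferentiated, -3.57 and -3.34 on the differentiated and -4.20 and -4.05 on the cabozantinib arrays, and Kdr (VEGFR2), the other named target and a partner of Nrp1, was at 0.16 and -0.61 on the undifferentiated, -0.40 and 0.11 on the differentiated and -1.02 and -0.73 on the cabozantinib arrays. Neither passed the test in any comparison.

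Downstream of the plexins, 24 of 25 listed effectors were tested and 3 fell on differentiation, with none higher. They were Rnd1 (-2.27), a small GTPase that binds plexins, Mical2 (-2.29), of a family of actin-oxidising enzymes, and Gipc1 (-1.91), an adaptor that binds Nrp1. Downstream of ephrins and Eph receptors, 22 of 25 were tested and 2 rose, Chn2 (2.50), a Rac-inactivating chimaerin, and Sdcbp (2.48), syntenin, which binds B-type ephrins. Of 19 tested members of the other guidance families, Robo2 (3.68), Ntng1 (4.41) and Ntn4 rose and Slit3 (-2.07) fell. Ntn4 was not well above background on either undifferentiated array or on differentiated 1. It was at -5.61 on differentiated 1 and -2.43 on differentiated 2. Its bound of at least 4.15-fold higher uses the mean of these arrays, so the rise rests on differentiated 2. Of all genes, 5.26% were called higher and 4.45% lower in this comparison. The medians of the 3 lists were 0.02, 0.35 and 0.30, against 0.11 for all genes.

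**Figure D3:**
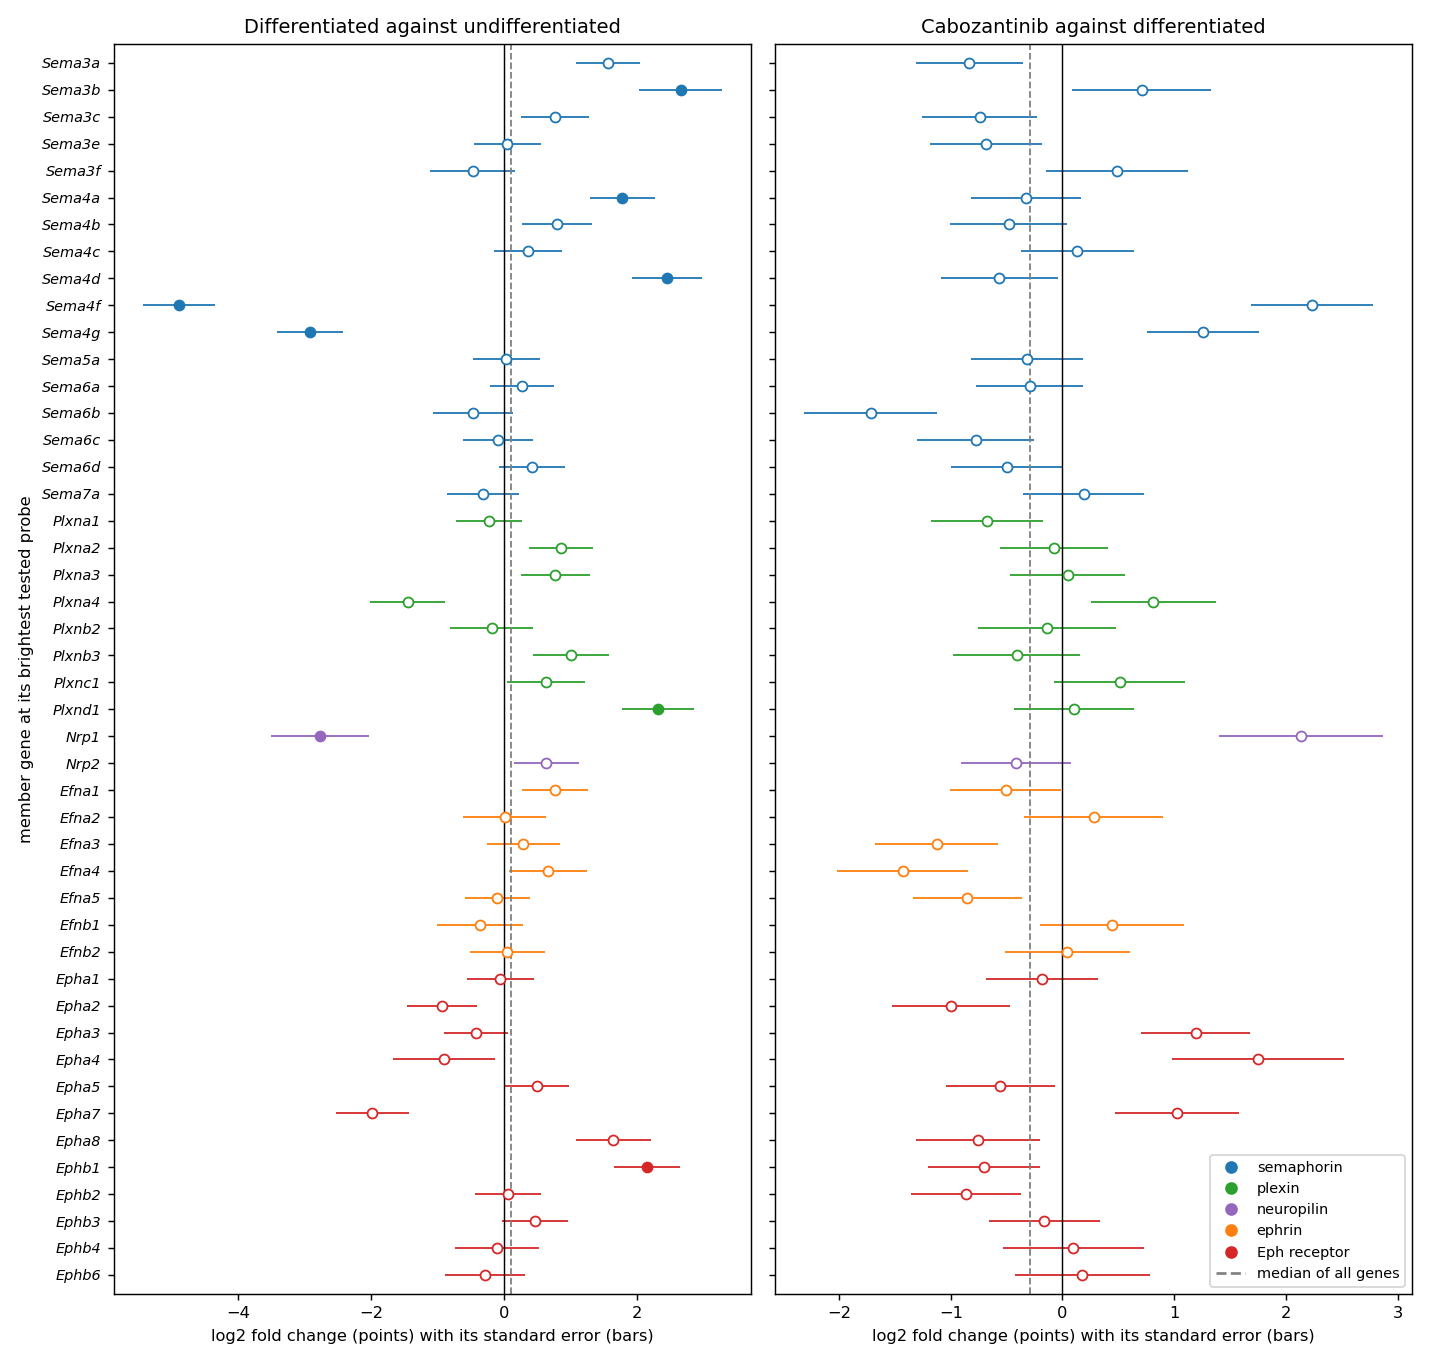
Log2 fold change (points) with its standard error (bars) of the 46 tested members, coloured by family, for differentiation (left) and for cabozantinib (right). Filled points have an adjusted p under 0.05 and the dashed line is the median of all genes. On the left 8 points are filled, and on the right none is, with most ephrin-A genes left of the dashed line.

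Cabozantinib-treated against differentiated osteoblasts addressed the effect of the drug. No member passed at an adjusted p under 0.05 in limma, where 2.67% of all genes were called, 0.121% higher and 2.55% lower. At an unadjusted p under 0.05, 5 members were higher (Sema4f, Sema4g, Nrp1, Epha3 and Epha4) and 2 lower (Sema6b and Efna4), with 2.71% and 20.7% of all genes (23.4% together) on those sides. The median over all genes was -0.29 and that over members was -0.24, so a fold change near that value is that of the median gene. With quantile normalization these medians were -0.08 and 0.03. Arrays did not overlap for 8 members that were higher and 20 that were lower, against 13.4% and 44.1% of all genes (57.5% together).

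Sema4f, at the signals given above, was higher on both cabozantinib arrays than on both differentiated arrays, with a log2 fold change of 2.24 ± 0.55 and a limma adjusted p of 0.0558. Without the replicate block in the fit Sema4f passed (limma adjusted p = 0.0301), and over 18 alternatives it passed in 6, with adjusted p from 0.00436 to 1. For Nrp1 the log2 fold change was 2.14 ± 0.74 (4.4-fold, limma adjusted p = 0.119), and the higher cabozantinib array, at -2.55, lay 1.69 above the lower. Sema4g, below background on both differentiated arrays and above it on both cabozantinib arrays, was at least 2.23-fold higher (limma adjusted p = 0.165). These 3 are the members that fell on differentiation. The same differentiated arrays enter both comparisons. Relative to undifferentiated osteoblasts, the log2 fold changes in treated cells were -2.66 ± 0.55 for Sema4f, -1.66 ± 0.50 for Sema4g and -0.63 ± 0.74 for Nrp1.

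The 5 members that rose on differentiation did not pass the test with cabozantinib. Their log2 fold changes with the drug were 0.71 ± 0.63 for Sema3b, -0.56 ± 0.53 for Sema4d, -0.33 ± 0.49 for Sema4a, 0.10 ± 0.54 for Plxnd1 and -0.70 ± 0.50 for Ephb1. On the arrays, Sema3b was higher and Sema4d, Sema4a and Ephb1 were lower on both cabozantinib arrays than on both differentiated arrays. The second Plxnd1 probe was lower on both cabozantinib arrays, at a log2 fold change of -1.26 ± 0.52, while the arrays overlapped at the brightest. Sema3a was lower on both cabozantinib arrays by both of its probes, -0.83 ± 0.48 at the brightest (limma adjusted p = 0.356), and neither passed.

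**Figure D4:**
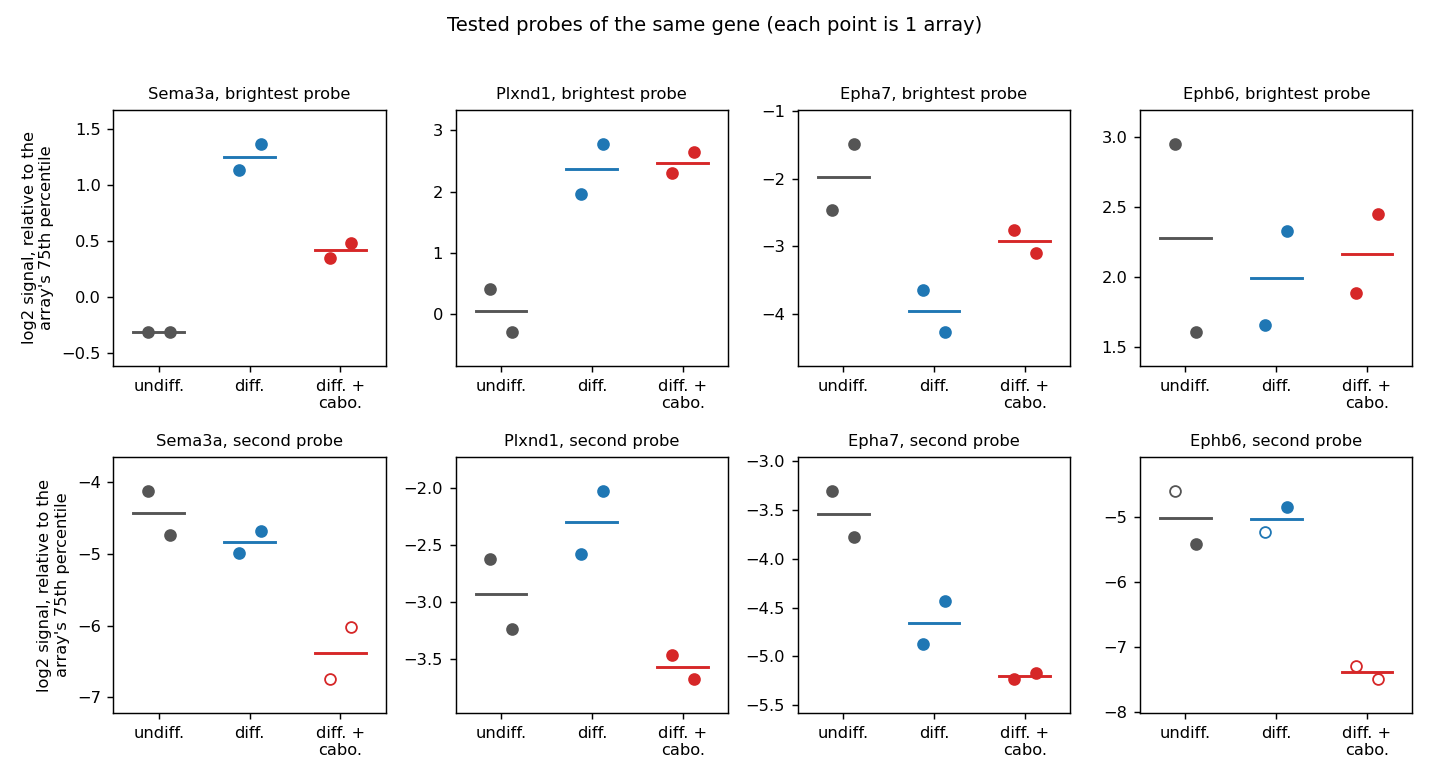
Signal of the brightest (top) and the second tested probe (bottom) of 4 genes, as log2 signal relative to the array's 75th percentile (vertical axes differ). Each point is 1 array, open points were not well above background, and lines are means of 2 arrays. For Sema3a the brightest probe is higher on both differentiated than on both undifferentiated arrays, while these arrays overlap at the second probe. For Ephb6 the second probe is lowest on both cabozantinib arrays, while the brightest one overlaps. That second probe is well above background only on undifferentiated 2 and differentiated 2.

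Eph receptors of the A type stood on both sides with cabozantinib. Epha4, a receptor of both A- and B-type ephrins, was at -4.02 and -2.00 on the undifferentiated, -3.44 and -4.40 on the differentiated and -1.46 and -2.87 on the cabozantinib arrays, a log2 fold change of 1.75 ± 0.77 (limma adjusted p = 0.206). Epha3 was at -0.94 and -0.85 on the undifferentiated, -1.22 and -1.42 on the differentiated and -0.19 and -0.06 on the cabozantinib arrays, a log2 fold change of 1.19 ± 0.48 (limma adjusted p = 0.173), and Epha7 had 1.03 ± 0.55. For these 3 both cabozantinib arrays were above both differentiated arrays at the brightest probe, while the second Epha7 probe was lower on both, at -0.55, and the third had 0.03. Epha2 was lower on both, at -0.997 ± 0.53 (limma adjusted p = 0.306).

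Ephrins of the A type were lower on the cabozantinib arrays in 4 of 5 cases, with no overlap, as were 44.1% of all genes. Efna4 was at -3.47 and -4.99 on the undifferentiated, -3.85 and -3.28 on the differentiated and -4.60 and -5.39 on the cabozantinib arrays, a log2 fold change of -1.43 ± 0.59 (limma adjusted p = 0.177), with cabozantinib 2 not well above background. Efna3 was at -2.94 and -3.80 on the undifferentiated, -3.43 and -2.74 on the differentiated and -4.42 and -3.99 on the cabozantinib arrays, a log2 fold change of -1.13 ± 0.55 (limma adjusted p = 0.261). Efna5 and Efna1 had log2 fold changes of -0.85 and -0.51, and Efna2 had 0.28. The median of the 5 was -0.85, and none passed the test. Efnb1, Efnb2 and Ephb4 had log2 fold changes of 0.44 ± 0.64, 0.04 ± 0.56 and 0.10 ± 0.63. The second probe of Efnb2 was not well above background on either cabozantinib array and at least 2.19-fold lower (limma adjusted p = 0.105).

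Ephb6, a kinase-dead receptor, had the widest gap between its probes with cabozantinib. At its brightest probe it was at 2.95 and 1.61 on the undifferentiated, 1.65 and 2.33 on the differentiated and 1.88 and 2.45 on the cabozantinib arrays, with overlapping groups and a log2 fold change of 0.18 ± 0.60 with cabozantinib. The second, dim probe was at -4.59 and -5.42 on the undifferentiated, -5.22 and -4.84 on the differentiated and -7.28 and -7.49 on the cabozantinib arrays, well above background on undifferentiated 2 and differentiated 2 alone, and at least 1.36-fold lower in treated than in differentiated osteoblasts (limma adjusted p = 0.0492). Of 9 members with several tested probes, 5 had probes of opposite sign in this comparison.

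No gene of the 4 pathway lists was called with cabozantinib in limma. At an unadjusted p under 0.05, 1 of 17 partners was higher and 2 lower, 1 of 24 plexin effectors was lower, 1 of 22 Eph effectors was higher and 2 lower, and 1 of 19 other guidance genes was higher and 3 lower, against 2.71% higher and 20.7% lower over all genes. Their medians were -0.67, 0.02, -0.08 and -0.06, against -0.29 for all genes. Met and Kdr had log2 fold changes of -0.67 ± 0.49 and -0.73 ± 0.53. Of the markers, the endothelial gene Cdh5 (-2.40, limma adjusted p = 0.0475) was called lower. All calls in this comparison lay near the threshold. The smallest limma adjusted p of any gene was 0.0326, and 1144 genes were under 0.06. Of the 6 tested endothelial markers 5 had log2 fold changes below 0 and 1, Pecam1 (0.61), was above 0. The summed adipocyte signal was 3.76 and 3.79 on the log2 scale in treated against 5.02 and 5.90 in differentiated osteoblasts. Nrp1 and Plxnd1 are also expressed by endothelial cells, and the part of these markers in the members' values was not tested. The count of members called was 7 in a fit of only the 4 arrays compared, which called 24% of all genes. Leaving out either undifferentiated array gives in effect that same fit. The calls did not hold without any 1 of the differentiated or cabozantinib arrays. Those 7 were Sema4f, Nrp1, Epha3, Epha4 and Epha7, higher, and Efna3 and Sema6b, lower, although no array of either group was well above background for Sema6b.

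Cabozantinib-treated against undifferentiated osteoblasts combined both changes and shares arrays with each of the comparisons above. Sema3b, Sema4d and Plxnd1 were called higher and Sema4f, Epha2 and Sema6b lower, 6 of 46 members, when 13.4% of all genes were called, 4.67% higher and 8.7% lower. The members' median was 0.01 and that of all genes was -0.36, and the arrays did not overlap for 14 members that were higher and 13 lower, against 19.7% and 43.6% of all genes (63.3% together). Sema3b was 10.3-fold higher at a log2 fold change of 3.37 ± 0.63 (limma adjusted p = 0.0108), Plxnd1 had 2.41 ± 0.54 and Sema4d 1.88 ± 0.53. The second Plxnd1 probe had -0.64 ± 0.52, the opposite sign. Sema4f was 6.31-fold lower (limma adjusted p = 0.0158).

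Epha2 was called in this comparison alone, with a log2 fold change of -1.93 ± 0.53 (3.81-fold lower, limma adjusted p = 0.0412), and its differentiated arrays lay between the other groups. Sema6b was at -4.54 and -6.28 on the undifferentiated, -6.07 and -5.67 on the differentiated and -7.51 and -7.67 on the cabozantinib arrays. No differentiated and no cabozantinib array was well above background for Sema6b, which was at least 1.05-fold lower in treated osteoblasts (measured log2 fold change -2.18 ± 0.60, limma adjusted p = 0.0415). The second Sema3a probe was called lower, at least 2.06-fold (limma adjusted p = 0.0401), while the brightest had a log2 fold change of 0.73 and did not pass. Erbb2, a receptor kinase that couples to Plxnb1, was also lower, at least 3.63-fold (limma adjusted p = 0.0319). Of the pathway lists, and against the 4.67% higher and 8.7% lower of all genes, 4 of 17 partners were higher (Chl1, Nrcam, Trem2 and Tyrobp) and Erbb2 was the 1 lower, 1 of 24 plexin effectors was lower (Rnd1, -2.18), 2 of 22 Eph effectors were higher and 1 lower (Crk, -2.58), and 3 of 19 other guidance genes were higher (Robo2, Ntng1 and Ntn3). No member was called when cabozantinib 2 was left out. Sema3b and Sema4f were called without cabozantinib 1, and 12 members without undifferentiated 2, where 36.9% of all genes were called. Without undifferentiated 1, 7 were called, with 14.5% of all genes, with Epha2 and Sema6b lost.

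On the cabozantinib arrays, 5 of the 8 members called on differentiation (Sema4a, Sema4d, Sema4f, Sema4g and Ephb1) had both values between those of the other groups, as did 50.3% of all 2242 genes called there. Genes called on differentiation were chosen on the same differentiated and undifferentiated arrays. The exceptions were Sema3b, with both values above both differentiated arrays, Plxnd1, which overlapped them, and Nrp1, which overlapped the undifferentiated arrays. This describes positions of 2 arrays a group and was not tested.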

How the data were processed

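Cy3-labeled RNA of each sample was measured on a 1-color Agilent array. The deposited scanner files hold intensity values of Feature Extraction 11.0.1.1, background-subtracted and detrended per the file headers and not scaled between arrays. The authors' deposited values cover 30439 probes in log2 units, with column medians of 7.504 to 7.506, made by steps not given in the sources used here. They follow the log2 scanner signal (Pearson's r of at least 0.998 on every array), so their scale and direction are known, and only the normalization is not.

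Control and outlier spots were removed, replicate spots were averaged on the log2 scale, and each array's 75th percentile over the probes was subtracted. Probes were named through RefSeq accessions (27234 of 39429 probes). Probes called above background on 2 or more of the 6 arrays were kept (27229 probes, 23082 genes). limma 3.58.1 in R 4.3.3 was fitted on all 6 arrays with condition and replicate number as terms, because the statistics section of the study names a paired test. This left 2 residual degrees of freedom a probe, with 7.68 added by pooling variances. The Benjamini-Hochberg adjustment ran across the whole set of probes. A gene was counted at its brightest tested probe. Where no array of 1 group was well above background, a fold is a bound against the lowest signal called above background on those arrays.

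Values on all arrays are given for members called in a comparison, the 3 highest and 3 lowest in each, and those with a described part in bone. Epha3 and Ephb6 were named beyond that rule after their values were seen. The members and the lists were chosen with earlier results of these data known. Of the markers, Bglap, Cd68 and Emr1 (the older symbol of Adgre1) were matched to no probe, and 1 neuronal and glial marker is not reported here. The number of arrays limits the precision. The replicate numbers did not pair the arrays: the correlation of deviations was -0.506 between undifferentiated and differentiated, -0.527 between undifferentiated and cabozantinib, and 0.265 between differentiated and cabozantinib arrays. The functions were tested on simulated data. Promoters are from RefSeq, build GRCm38.p6. Files were read with Python 3.11.15 and figures drawn with matplotlib 3.10.9.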

Additional observations from a re-analysis of the deposited data

How the results depend on the processing

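Every member called in a comparison kept its direction there under all 17 or 18 alternatives run, and the calls did not all hold. On differentiation Sema4f was called in 16 of 18 alternatives, Sema4d in 14 of 18, Sema4g in 12 of 17, Plxnd1 and Sema3b in 11 of 18, Ephb1 in 10 of 17, Nrp1 in 8 of 17 and Sema4a in 7 of 18. In treated against undifferentiated osteoblasts Sema3b was called in 15 of 18, Sema4f in 12, Plxnd1 in 11, Sema4d in 10 and Epha2 in 9, and Sema6b in 8 of 17. These alternatives are not independent of each other, so the tallies do not count separate tests. With the replicate block, leaving out either array of the third condition gives in effect the fit of only the 4 arrays compared. Quantile normalization and the authors' values called the same members in each comparison. Where counts moved by over 1.5 times, the cause was not tested. Quantile normalization called 0 genes for cabozantinib against differentiated osteoblasts (4026 at an unadjusted limma p under 0.05) and, for treated against undifferentiated, 1312 genes and 2 members, and the authors' values called 0 (4027 unadjusted), 1300 and 2. Normexp background correction, run on the median signal because no mean signal was in the files used here, called 673 genes and 3 members on differentiation, 0 genes with the drug (513 unadjusted) and 464 genes and 1 member against undifferentiated. Without the filter on dim probes these were 1403 and 3, 0 (5622 unadjusted), and 1163 and 2. Probes above background on all 6 arrays gave 2 genes with the drug and 1350 against undifferentiated. Averaging the probes of a gene gave 1106 genes and 1 member (Sema4f) with the drug, and fitting only the 4 arrays compared gave 5546 genes and 7 members. The methods' t-test, at the usual threshold of p under 0.05, passed 1290, 3847 and 1784 genes in the 3 comparisons when paired, and after Benjamini-Hochberg 0 genes and 0 members in each. Unpaired and adjusted it passed 0 genes and 0 members on differentiation, 0 genes with the drug, and 1 gene and 0 members against undifferentiated.

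The replicate numbers did not pair the arrays. Without the replicate block, differentiation gave 3096 genes and 9 members, the drug 2948 genes and 1 member (Sema4f), and treated against undifferentiated 5572 genes. After seeing the data, 2 alternatives were added. A replicate block with the undifferentiated numbers exchanged gave 6029 genes and 13 members, 7062 and 9, and 10304 and 18 in the 3 comparisons, and a 75th percentile taken over spots gave 1 gene with the drug. Leaving out 1 array at a time gave 1350 to 4398 genes and 1 to 13 members on differentiation, 41 to 5547 and 0 to 7 with the drug, and 692 to 8506 and 0 to 12 against undifferentiated.

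Sign was followed only for the tested members that the rule for giving values on all arrays had named. Those of them not called in a comparison changed sign there as follows. With the drug, Plxnb2 was at 0.021 with quantile normalization and 0.023 in the authors' values, and Efna4 in treated against undifferentiated osteoblasts was at 0.026 and 0.024. Normexp gave -0.031 for Efnb2, -0.079 for Efna2 and -0.011 for Ephb2 on differentiation, and -0.087 and -0.118 for Efnb2 in the others. The mean of probes gave -0.007 for Efnb2 on differentiation, -0.58 for Plxnd1 and -0.85 for Efnb2 with the drug, and -0.61 for Sema3a, 0.17 for Sema6d, -0.20 for Nrp2 and -0.86 for Efnb2 against undifferentiated. The percentile over spots gave -0.005 for Efna2 on differentiation. With 1 array left out at a time, the log2 fold change on differentiation ran from -1.39 to 0.46 for Sema6b, -0.99 to 0.36 for Sema7a, -0.60 to 0.14 for Plxna1, -1.20 to 0.82 for Plxnb2, -1.37 to 0.64 for Efnb1, -0.63 to 0.73 for Efnb2, -1.15 to 0.94 for Ephb4, -0.20 to 1.53 for Efna4, -0.42 to 1.001 for Efna3, -2.51 to 0.69 for Epha4, -0.997 to 1.01 for Efna2 and -0.23 to 0.34 for Ephb2. With the drug it ran from -0.39 to 0.60 for Plxnd1, -0.15 to 0.53 for Sema7a, -0.56 to 1.45 for Efnb1, -0.55 to 1.11 for Efna2, -0.44 to 0.12 for Ephb3, -0.72 to 0.91 for Ephb4, -0.92 to 0.65 for Plxnb2 and -0.62 to 0.70 for Efnb2, and against undifferentiated from -0.76 to 2.45 for Epha4, -0.80 to 0.55 for Sema7a, -1.33 to 0.68 for Plxnb2, -0.59 to 0.78 for Efnb2, -0.001 to 0.60 for Ephb3, -1.05 to 1.04 for Ephb4, -2.13 to 0.86 for Nrp1, -0.35 to 0.18 for Sema6d, -0.066 to 0.51 for Nrp2, -0.91 to 1.07 for Efnb1 and -0.72 to 1.29 for Efna2. For Sema4g and Sema6b, dim on both arrays of at least 1 condition, the signal gives only a bound.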
